A study of Nicotiana tabacum with 9 samples.

Results

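The genes described here gave almost no reads in tobacco (*Nicotiana tabacum*) pollen tubes grown at room temperature (RT) and were present in every heat-stressed library. They were chosen by 2 limits on the deposited counts, namely at most 3 counts in each of the 6 RT libraries and at least 1 CPM (counts divided by the library total and scaled to 1e6) in each of the 3 libraries of heat stress (HS). Of the 74044 genes in the count tables, 72 met both limits. After 8 genes were left out by name, of which 7 met the limits and 1 stayed below 1 CPM under HS, 65 genes remained. Because the counts of all 9 libraries chose these genes, their absence at RT and their presence under HS are the choice itself and are given as a description without a test.

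When plant cells are heated, heat shock transcription factors bind to heat shock elements in promoters and switch on genes for heat shock proteins, which act as chaperones that keep other proteins from aggregating. Many genes of this response are transcribed very little without stress, while others encode housekeeping chaperones that are also needed at normal temperature. A pollen tube is the outgrowth by which the male gametophyte carries the sperm cells to the ovule, and it begins its growth with transcripts stored in the pollen grain.

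Pollen of the cultivar Samsun-NN, pooled from several plants for each experiment, was germinated in vitro on cellophane. The RT 3 h and RT 6 h tubes stayed at RT for the time in their names, and the HS 3 + 3 h tubes were moved to 37°C after 3 h and kept there for another 3 h. Each condition had 3 libraries of polyadenylated RNA. The cultivar, the growth medium and the cellophane were the same in all conditions. RT 6 h tubes had the same age as the stressed tubes, and RT 3 h tubes stood at the time when the stress began. The sources used here do not say whether replicate libraries stem from different pools of pollen, so the spread between libraries may be technical.

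The libraries held between 14931693 and 26772286 counts on genes, and HS replicate 1 was the shallowest. A count of 3 corresponded to 0.112 to 0.131 CPM in the RT libraries, and 1 CPM to 14.9 to 24.5 counts in the HS libraries, so silence means a level below these few counts and not that a transcript was absent. Of 5 genes taken by name as pollen tube markers, 1 (LOC107811318, NtRALF) was at 0 counts in all libraries. Whether NtRALF is a pollen gene was not tested. The summed level of the 5 genes lay between 45838 and 49328 CPM in RT 3 h libraries, between 52250 and 55158 CPM in RT 6 h libraries and between 51057 and 52480 CPM in HS libraries. The summed level of 14 photosynthesis genes, as markers of leaf tissue, was at most 0.560 CPM in every library, and 6 of them, among them the photosystem II gene psbS, were at 0 in all 9. In RNA from whole cultures, more cells with a transcript and more transcript per cell cannot be told apart.

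At RT, the 65 genes together had 295 counts in the 6 libraries, and 211 of the 390 gene and library pairs were at 0. In the RT 3 h libraries they had 62, 57 and 40 counts in all, and in the RT 6 h libraries 39, 54 and 43 counts. The 3 HS libraries held 13512, 23805 and 22254 counts of the same genes. This is 0.0905% of the library in HS replicate 1 (exact binomial 95% interval 0.0890 to 0.0920%), 0.0983% in replicate 2 (0.0970 to 0.0995%) and 0.0908% in replicate 3 (0.0896 to 0.0920%). Intervals cover counting error within a library only and leave out variation between libraries, and the reads carry no molecular identifiers. The interval of replicate 2 lay above those of replicates 1 and 3. Pooled over libraries, the summed CPM of the genes was 2.12 in the RT 3 h, 1.80 in the RT 6 h and 936 in the HS libraries, and the libraries of both growth times at RT overlapped.

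**Figure D1:**
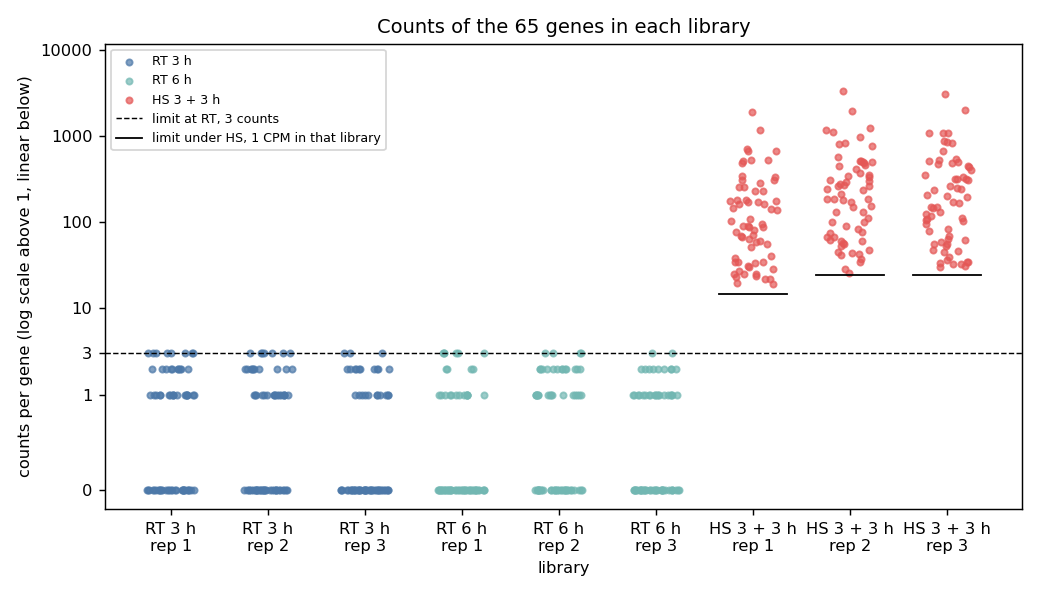
Counts of the 65 genes in each of the 9 libraries, 1 point per gene, with the count axis logarithmic above 1 and linear below. The dashed line marks the limit of 3 counts at RT and the short lines mark 1 CPM in each HS library. The gap between both groups is set by the choice of the genes, while the spread under HS, from 19 to 3378 counts, is not.

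Of the 65 genes, 7 had no count in any RT library, 13 had none at RT 3 h, and 17 had none at RT 6 h. A total of 22 genes reached 3 counts in at least 1 RT library. LOC107768524 had the most RT counts, with 2, 3 and 1 at RT 3 h and 1, 3 and 3 at RT 6 h against 35, 61 and 45 under HS. LOC107777612 and LOC107802502 followed with 11 RT counts each. Just outside this limit, LOC107801345, LOC107797567 and LOC107807274 reached 4 counts in an RT library, with 7, 8 and 8 RT counts in all, and were present under HS with 55, 75 and 94 counts, 113, 133 and 175 counts, and 29, 76 and 48 counts. A total of 84 genes with a highest RT count of 4 to 10 were past 1 CPM in all HS libraries without meeting the limit at RT.

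At the limit under HS, the lowest genes inside were LOC107763429, LOC107760521 and LOC107776210, whose lowest HS library stood between 1.07 and 1.22 CPM of the library total. Just outside were LOC107762252, LOC107823178 and LOC107779336 with 0.991, 0.979 and 0.979 CPM. In the test of HS 3 + 3 h against RT 6 h across all genes, 6.24% of the genes tested were called higher under HS (edgeR quasi-likelihood test, log2 fold change, log2FC, above 1 and FDR of at most 0.005), and all 65 were among them, as they were among the 7.36% called higher against RT 3 h. The rule that chose the genes used the same libraries, so nothing is read from these counts. None of the 65 passed the filter on low counts in the comparison of RT 3 h and RT 6 h, where 0 genes of the 65 could be tested. This follows from the rule, since 3 counts lie below the 0.5 CPM of the filter in every RT library.

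Most genes without reads at RT stayed without reads under HS. A total of 40422 genes had at most 3 counts in each RT library. Of these, 25999 had no count in any of the 9 libraries, and 39383 also had at most 3 counts in each HS library. With rising demands on the HS libraries, 386 of the 40422 genes had at least 0.1 CPM in each, 110 at least 0.5 CPM, 72 at least 1 CPM, 41 at least 5 CPM, 29 at least 10 CPM and 13 at least 20 CPM, counted with the genes left out by name. There was no break in this series at 1 CPM, so the limit cuts through a continuous range of levels.

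**Figure D2:**
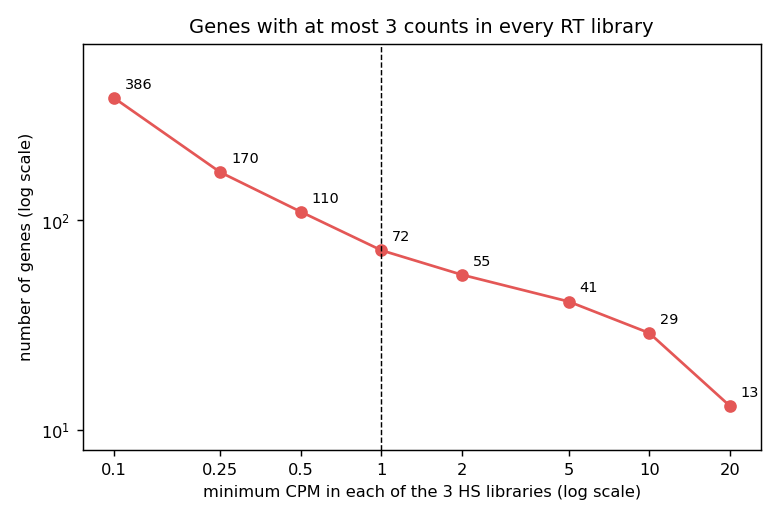
Number of genes with at most 3 counts in every RT library (vertical axis, log scale) that had at least a given CPM in each of the 3 HS libraries (horizontal axis, log scale), with the numbers printed at the points. The dashed line marks the limit of 1 CPM, passed by 72 genes before 7 were left out by name.

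The same 2 limits gave genes in 1 direction only. With RT 6 h as the silent condition and HS as the present one, 85 genes met them, and with RT 3 h as the silent one 88 genes did, again counted with the genes left out by name. In the opposite direction, 0 genes had at least 1 CPM in each RT 6 h library and at most 3 counts in each HS library, and 0 genes did so for the RT 3 h libraries. Likewise, 0 genes were present at 1 growth time at RT and silent in all other libraries. These numbers are counts of genes past fixed limits and were not tested.

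Under HS the 65 genes spanned a wide range. On the TMM scale, on which levels are given from here on, the mean of the 3 HS libraries ran from 1.44 to 138 CPM with a median of 7.02 CPM, while the median of all 23053 genes tested was 2.64 CPM. At least 10 CPM were reached by 29 genes and at least 50 CPM by 3 genes. The 5 genes with the most reads took 37.7% of the HS counts of the 65, and the 10 with the most reads took 54.7%.

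LOC107789670 took 14.1% of these counts. It is a gene of 1 exon block (merged exons of all transcripts) with a coding length of 579 bases on the TN90 scaffold NW_015917415.1, positions 234373 to 235200. It had 0, 0 and 2 counts at RT 3 h, 1, 2 and 1 at RT 6 h, and 1924, 3378 and 3079 under HS. Its CPM in the 3 HS libraries was 135, 147 and 134, or 138 ± 6.99 (SD, n = 3). Pooled over libraries the level was 2765-fold that at RT 6 h, with an exact counting interval (95%) of 1079 to 10150. The interval is wide because only 4 reads stand behind the RT value. It covers counting error only and does not allow for the rule, which capped the counts at RT and can so raise the ratio. The same holds for the other ratios to RT 6 h.

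LOC107802502 came next, with 3, 2 and 1 counts at RT 3 h, 3, 2 and 0 at RT 6 h, and 1180, 1968 and 2002 under HS, or 85.1 ± 1.99 CPM. It lies on scaffold NW_015935762.1 from 15749 to 16572 and has 1 exon block and 474 coding bases. The ratio to RT 6 h was 1359 (582 to 4188). LOC107769142 had 3, 1 and 1, then 0, 1 and 0 counts at RT, and 721, 1256 and 1084 counts under HS, which is 50.7 ± 3.71 CPM. LOC107787546 had 3, 3 and 0, then 3, 1 and 0 counts at RT and 680, 1174 and 1083 under HS, which is 48.6 ± 2.06 CPM. These genes have 480 coding bases each in 1 exon block.

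LOC107815628 (462 coding bases) had 2, 3 and 0, then 0, 1 and 0 counts at RT and 682, 1134 and 1102 under HS, with the CPM at 48.0, 49.2 and 47.8 and thus nearly equal in the 3 libraries. LOC107772900 (465 coding bases) had 3, 2 and 1, then 0, 1 and 1 counts at RT and 514, 972 and 874 under HS. LOC107781170 (534 coding bases) had 1, 0 and 2, then 1, 0 and 0 counts at RT and 488, 767 and 668 under HS. In none of these genes did an HS library fall below 488 counts, while the rule held each RT library to at most 3.

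Per length of the merged exons, which allows genes to be compared, LOC107789670 was highest with 167 ± 8.44 RPKM (CPM per kilobase), followed by LOC107802502 with 103 ± 2.41 RPKM. LOC107802394 with 72.6 ± 12.5 RPKM, LOC107787546 with 65.2 ± 2.77 RPKM and LOC107815628 with 65.1 ± 1.00 RPKM did not differ beyond their spread. LOC107802394 has only 277 bases of exon, of which 71 are coding, so its value per length rests on a short gene model. LOC107769142 followed with 54.9 ± 4.01 RPKM, LOC107772900 with 47.8 ± 3.81 RPKM, LOC107781170 with 43.4 ± 3.80 RPKM and LOC107798647 with 40.4 ± 1.1 RPKM. The first 8 of these 9 genes have 1 exon block.

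The gene models divide the 65 genes into 25 coding genes with 1 exon block, 28 coding genes with 2 to 10 exon blocks, and 12 genes without a coding segment in the deposited annotation. The coding genes with 1 exon block took 62.1% of the HS counts of the 65 genes. Their median level was 16.8 RPKM (range 1.75 to 167), against 2.98 RPKM (0.584 to 40.4) for those with several exon blocks and 3.26 RPKM (0.673 to 22.1) for the genes without a coding segment.

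Short, unspliced gene models were frequent among the 65. Of the 53 coding genes, 25 had 1 exon block, a share of 47.2%. The same share was 12.2% among 1152 other coding genes called higher under HS, 7.03% among 14163 other coding genes with at least 1 CPM in each HS library, 24.6% among 32341 other coding genes with at most 3 counts in each RT library, and 16.9% among all 61552 coding genes. The median coding length was 589 bases in the 65, 1134 bases in the other genes called higher, 1200 bases in the other genes present under HS and 855 bases in the other genes silent at RT. Genes with 1 exon block and 400 to 600 coding bases made up 35.8% of the 53 genes, 2.95% of the other genes called higher and 7.38% of the other genes silent at RT. The rule did not use the gene models, but these shares are descriptions, since some of the genes are neighbours, and whether others are copies of one another was not tested.

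Within this class, 12 genes had between 453 and 483 coding bases. They took 35.1% of the HS counts and ran from 1.54 to 85.1 CPM under HS. Identical coding lengths recurred, with 462 bases in 4 genes (LOC107815628, LOC107770077, LOC107783869, LOC107786233), 474 bases in 4 genes (LOC107802502, LOC107802503, LOC107832103, LOC107796225, the last with 2 exon blocks) and 480 bases in 3 genes (LOC107769142, LOC107787546 and LOC107763429, the last with 4 exon blocks). An equal length does not show that proteins are related, and no protein sequence was compared. The deposited files name no product for the 12 genes.

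**Figure D3:**
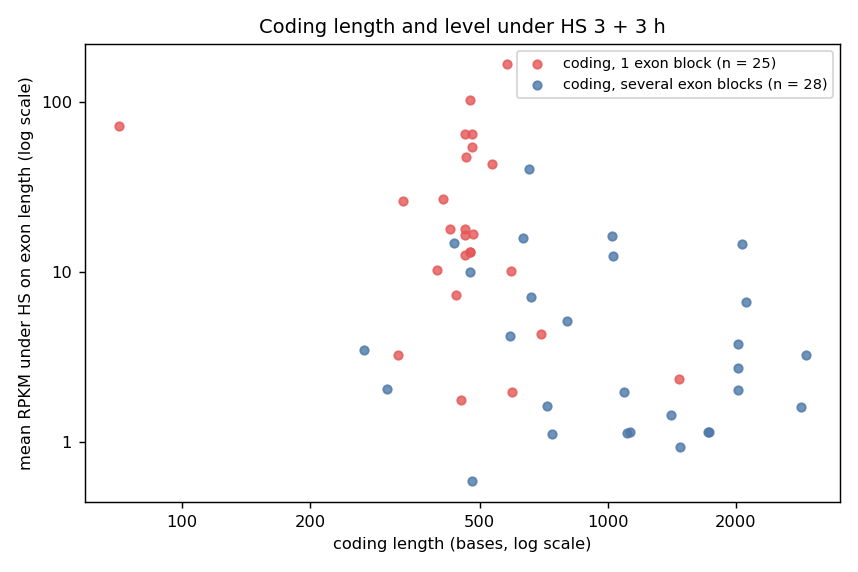
Coding length in bases (horizontal axis, log scale) and mean RPKM of the 3 HS libraries on merged exon length (vertical axis, log scale) of the 53 coding genes, with genes of 1 exon block in red and genes of several exon blocks in blue. Red points gather between 400 and 600 bases, and 8 of the 9 genes above 40 RPKM are red.

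Among the 4 genes of 462 bases, LOC107815628 stood apart at 65.1 ± 1.00 RPKM, while LOC107783869 had 17.8 ± 0.769, LOC107770077 16.6 ± 1.37 and LOC107786233 12.7 ± 0.471 RPKM. LOC107783869 had 1, 1 and 2 counts at RT 3 h and 0 in each RT 6 h library against 184, 303 and 323 under HS, which is at least 356-fold higher than a floor of 3 counts over the RT 6 h libraries. LOC107786233 had a single count in 1 of the 6 RT libraries and 142, 248 and 240 counts under HS, at least 277-fold above the same floor. The order of LOC107783869 and LOC107770077 was within their spread.

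By CPM, LOC107779834 and LOC107798647 were the highest coding genes with several exon blocks. LOC107779834, with 8 exon blocks and 2070 coding bases on scaffold NW_015905563.1 (22075 to 28213), had 1, 1 and 0, then 0, 0 and 1 counts at RT and 527, 843 and 829 counts under HS. Its CPM was 37.1, 36.6 and 36.0, among the most even values of all 65 genes. LOC107798647 (2 exon blocks, 654 coding bases) had 2, 0 and 0, then 0, 3 and 2 counts at RT and 526, 811 and 850 under HS, or 36.4 ± 1.02 CPM.

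LOC107766372 and LOC107783248 have nearly the same gene model, with 3 exon blocks and 1026 and 1029 coding bases. They had 310, 519 and 536 counts and 231, 419 and 402 counts under HS, or 16.3 ± 0.534 and 12.4 ± 0.701 RPKM. At RT both had few reads in both conditions, with 0, 2 and 3 followed by 0, 0 and 3 counts in the former and 0, 1 and 2 followed by 0, 0 and 2 counts in the latter. Another recurrent length was 2025 bases in LOC107795979, LOC107777612 and LOC107827004, which ranged from 4.55 to 8.52 CPM under HS. Of these, LOC107827004 overlaps LOC107827005 on the opposite strand by 78 bases, and the latter had at most 2 counts in every library.

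The 12 genes without a coding segment ran from 2.21 to 24.5 CPM under HS and took 12.3% of the HS counts. In a reference gene table of the K326 tobacco assembly, in which 56 of the 65 identifiers were found, 47 genes are listed as protein coding, 5 as long noncoding RNA and 4 as pseudogenes. The long noncoding RNAs were LOC107796765, LOC107778810, LOC107782302, LOC107770790 and LOC107821708. LOC107796765 (4 exon blocks) had 3, 0 and 1, then 0, 1 and 2 counts at RT and 351, 569 and 553 counts under HS, which is 24.5 ± 0.388 CPM. LOC107778810 had 0, 1 and 0, then 0, 0 and 1 counts at RT and 284, 506 and 504 counts under HS.

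LOC107820215, without a coding segment and not found in the K326 table, had 1, 0 and 0, then 0, 2 and 1 counts at RT and 338, 500 and 491 counts under HS. It had 22.1 ± 1.31 RPKM, the highest level per length of the genes without a coding segment, next to LOC107778810 with 21.1 ± 1.11 RPKM, from which it did not differ beyond their spread. Among the pseudogenes, LOC107764378 was highest. It had 0 counts in all 6 RT libraries and 234, 516 and 483 counts under HS, at least 542-fold above the floor of 3 counts over the RT 6 h libraries. Reads of a pseudogene can also stem from its intact copies, and how reads with several matches were counted is not stated in the sources used here.

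The study gave Arabidopsis homologs for most of the genes it detected and states that most transcripts raised strongly by heat encode heat shock proteins. Of its names, only its lists of regulators and lipid genes and its text were used here, and 2 of the 65 genes were found in them. LOC107817403 is its homolog of Arabidopsis AOX1a (AT3G22370), an alternative oxidase, which takes electrons from ubiquinol in plant mitochondria and passes them to oxygen without pumping protons. It had 0 counts in all 6 RT libraries and 35, 68 and 69 counts under HS, which is 2.46, 2.95 and 3.00 CPM. This is at least 75.7-fold higher than the floor of 3 counts over the RT 6 h libraries.

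Other AOX genes were expressed without heat. In the K326 table, 2 genes carry an AOX name as a synonym. LOC107781761 rose from 24.9 ± 1.77 CPM at RT 6 h to 104 ± 3.01 CPM (log2FC 2.06, FDR 2.79e-51, edgeR), and LOC107763364 from 35.3 ± 1.16 to 89.2 ± 2.68 CPM (log2FC 1.33, FDR 1.01e-38). Their RT 3 h libraries held 251 to 307 and 352 to 422 counts, and their RT 6 h libraries 576 to 709 and 855 to 995 counts. Under HS, LOC107817403 reached 1.96 ± 0.207 RPKM, below LOC107763364 with 61.5 ± 1.85 RPKM and LOC107781761 with 104 ± 3.00 RPKM. The gene without reads at RT was thus the lowest under HS of the AOX genes named here. The study detected further genes with alternative oxidase activity, which were not compared.

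LOC107763429 is listed by the study among transcriptional regulators as a MADS family gene with AT5G62165 as its closest Arabidopsis protein. MADS domain proteins are transcription factors, best known from flower development. It was among the lowest of the 65 genes by CPM, with 1, 0 and 0, then 0, 1 and 0 counts at RT and 25, 26 and 33 counts under HS, which is 1.44 ± 0.315 CPM and did not differ beyond the spread from LOC107760521 with 1.44 ± 0.160 CPM. The same Arabidopsis protein is the closest match of LOC107793038, which lies just outside the limit at RT with 1, 4 and 2, then 0, 1 and 1 counts, and which had 39, 68 and 54 counts under HS (log2FC 6.46, FDR 2.36e-23, edgeR). A further gene with this match, LOC107772910, had 15, 15 and 12 counts at RT 6 h and 4, 9 and 10 counts under HS. Of the 30 MADS genes on the study's list, all of which were tested, 2 were called higher under HS, LOC107763429 and LOC107793038, and 1 lower. That is a share of 6.67% called higher beside 6.24% of all genes tested. Nothing is read from this share. LOC107763429 was chosen by the rule on the same libraries, and LOC107793038 passed the filter on low counts only through the HS libraries. The list of 1319 regulators held no other of the 65 genes, and the list of lipid genes, which holds 709 different identifiers when repeated entries are counted once, held none.

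The 65 genes lie on 61 TN90 scaffolds, and 4 pairs of them share one. LOC107832103 and LOC107832104 are separated by 383 bases on the same strand, LOC107777612 and LOC107777613 by 332 bases on opposite strands, and LOC107802502 and LOC107802503 by 3491 bases on the same strand. Their levels differed within the pairs, with 103 ± 2.41 and 13.2 ± 1.90 RPKM in LOC107802502 and LOC107802503, and 13.1 ± 0.125 and 26.3 ± 1.68 RPKM in LOC107832103 and LOC107832104. LOC107832104 had 2 counts in each RT 6 h library, while its neighbour had none.

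The neighbours outside the 65 genes were not chosen by the rule. Within 5 kb, 38 such genes lay beside the 65, and 13 of them were tested. Of these, 3 were called higher under HS (23.1% beside 6.24% of all genes tested) and 0 lower. A neighbour with few reads at RT passes the filter on low counts only if it is high under HS. LOC107779835 and LOC107814572 passed it in this way, so the share is a description without a test. LOC107787548 lies 409 bases from LOC107787549, on the opposite strand. It had 10, 14 and 15 counts at RT 3 h, 13, 9 and 16 at RT 6 h, and 296, 508 and 489 under HS (log2FC 5.47, FDR 7.48e-52, edgeR). LOC107779835 lies 1157 bases from LOC107779834 and rose from 0.417 ± 0.0920 to 1.62 ± 0.249 CPM (log2FC 1.93, FDR 2.50e-08, edgeR).

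The third, LOC107814572, overlaps LOC107814574 over 1975 bases on the same strand. The study lists it as a coactivator p15 homolog. It had 6, 10 and 11 counts at RT 6 h and 62, 98 and 84 under HS, while LOC107814574 had 1, 2 and 1, and 25, 56 and 56 counts. Since both annotations cover the same bases, reads of either can have been counted for the other, and their part in each value was not tested. Within 20 kb, LOC107769141 and LOC107794868 were added to the genes called higher. Both passed the filter on low counts only through the HS libraries. LOC107769141 had 3, 5 and 3 counts at RT 3 h, 3, 2 and 6 at RT 6 h, and 1693, 2685 and 2808 under HS and lies 7607 bases from LOC107769142 on the same strand.

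TN90 scaffolds are short, and 19 of the 65 genes are alone on theirs. The order of genes was therefore also taken from the K326 table, in which 12 of the 56 genes found fell into 4 groups with at most 10 genes from one to the next. LOC107802394, LOC107786233, LOC107770077 and LOC107815628 follow each other directly, although they lie on 4 different TN90 scaffolds. All of them have 1 exon block, and the genes on either side of this run, LOC107802392 and LOC107765762, were not called higher. LOC107802392 had 549, 568 and 550 counts at RT 6 h and 203, 310 and 339 under HS, and LOC107765762 had 0 counts in all 9 libraries.

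In the group around LOC107802502, the genes LOC107802502, LOC107802503, LOC107796225 and LOC107794869 are followed by LOC107794868, LOC107794867 and LOC107760429, which missed the limit at RT by a few counts. LOC107794868 had 6, 1 and 1, then 1, 2 and 0 counts at RT and 891, 1464 and 1486 under HS (log2FC 10.53, FDR 8.51e-70, edgeR). LOC107794867 had 6, 8 and 11, then 3, 6 and 10 counts at RT and 1966, 3182 and 3327 under HS (log2FC 9.17, FDR 7.71e-78, edgeR). LOC107760429 had 10, 11 and 10, then 5, 9 and 4 counts at RT and 1351, 2648 and 2188 under HS (log2FC 8.78, FDR 1.90e-72, edgeR). The limit at RT thus separates genes of 1 run that share short gene models, since LOC107794868 and LOC107794867 have 474 coding bases and LOC107760429 has 483, each in 1 exon block.

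The same holds for the group of LOC107787548, LOC107787549, LOC107787546 and LOC107779995, of which the inner pair is among the 65. LOC107779995 had 3, 4 and 0, then 3, 2 and 3 counts at RT and 1572, 2818 and 2526 counts under HS (log2FC 10.08, FDR 4.58e-76, edgeR), so a single count above 3 in 1 RT library kept it outside. Per length it stood at 134 ± 8.23 RPKM, above LOC107787546 with 65.2 ± 2.77 RPKM. Over all 56 genes, 226 other genes lay within 3 genes on either side and are in the count tables. Of the 82 that were tested, 10 were called higher (12.2% beside 6.24% of all genes tested) and 3 lower, and 8 of the 10 have 1 exon block. Of the 10, all except LOC107787548 and LOC107814701 passed the filter on low counts only through the HS libraries, LOC107779995 among them. This share is therefore a description as well. Whether reads of these adjacent genes were shared between them was not tested.

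**Figure D4:**
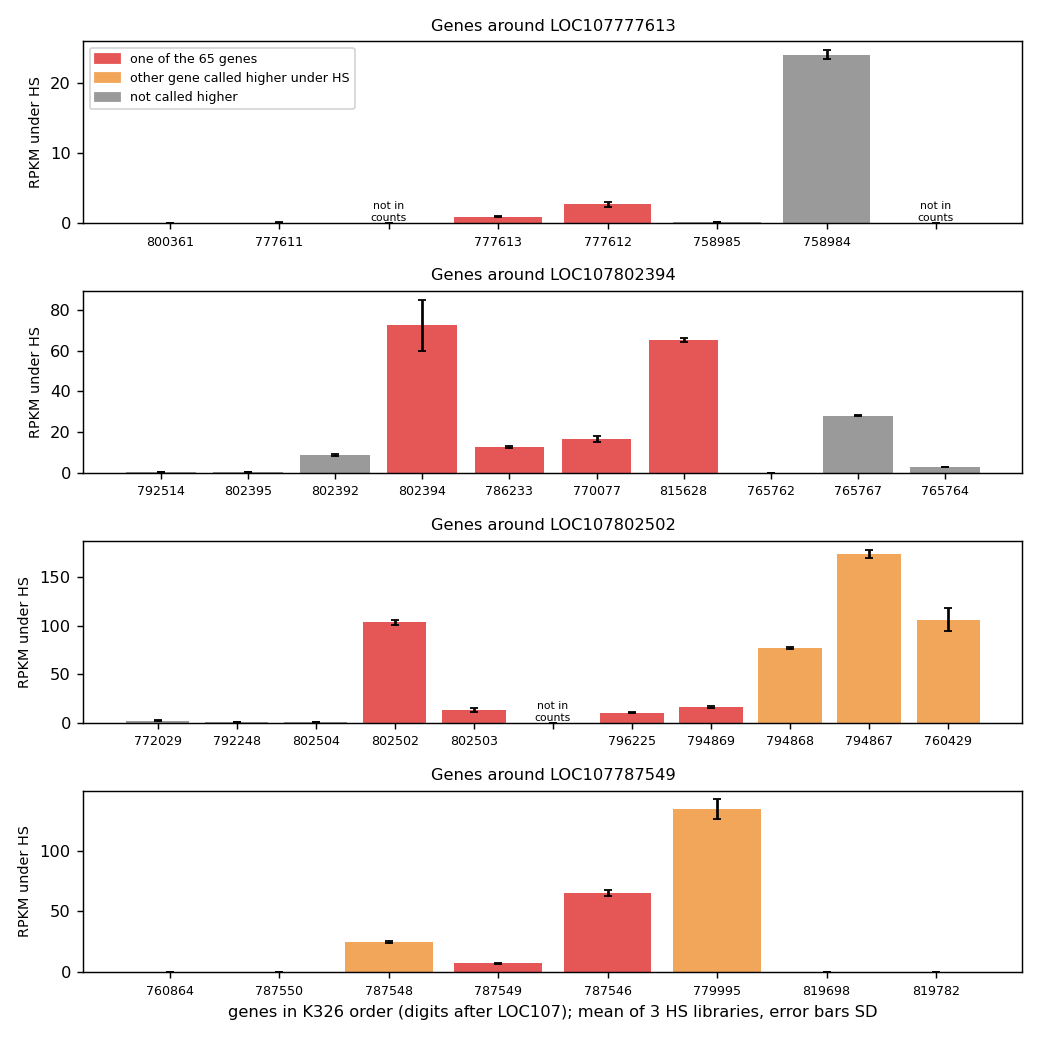
Mean RPKM under HS (vertical axes, linear, error bars SD of 3 libraries) of the genes in and around the 4 groups, in the order of the K326 table, with the digits after LOC107 below each bar. Red bars are among the 65 genes, orange bars are other genes called higher under HS, grey bars were not called higher, and genes that are not in the count tables carry no bar. The groups around LOC107802502 and LOC107787549 go on into orange bars of 25.1 to 174 RPKM, while the run around LOC107802394 ends at genes that were not called higher.

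Variation between the HS libraries differed from gene to gene. The coefficient of variation of CPM over the 3 HS libraries had a median of 10.6% (0.954 to 33.4%), against 8.56% over 14052 other genes present under HS with a mean CPM in the same range. It was 8.22% for the coding genes with 1 exon block, 14.3% for those with several, and 7.23% for the genes without a coding segment. The median levels of these classes also differed, at 12.6, 4.98 and 6.15 CPM. Counting error is relatively larger at low levels, and its part in these values was not tested. HS replicate 2 was the highest library for 37 of the 65 genes (56.9%), against 31.2% of 15677 other genes with at least 1 CPM in each HS library. The median log2 deviation of replicate 2 from the mean was 0.07 in the 65 genes and -0.0030 in the other genes. TMM scaling levels most genes between libraries, so the latter value cannot show whether the library as a whole was higher.

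A group of 9 genes (13.8%) was more than 1.5-fold higher in HS replicate 2 than in replicate 1, against 2.31% of the other genes in the same range of CPM. LOC107817520, with 4 exon blocks and 2112 coding bases, had 12.1, 21.2 and 15.3 CPM in HS replicates 1 to 3. LOC107790823 (2847 coding bases) had 4.85, 8.2 and 5.73 CPM, LOC107791725 (591 coding bases) 7.38, 12.3 and 9.07 CPM, and LOC107810530 (396 coding bases) 6.19, 9.33 and 4.91 CPM. The last of these had 0 counts in all RT libraries and the largest coefficient of variation of the 65. At the other end, the coefficient of variation was 0.954% for LOC107832103 (11.6, 11.4 and 11.6 CPM) and 1.46% for LOC107779834. Which feature of replicate 2 goes with the higher values was not tested.

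**Figure D5:**
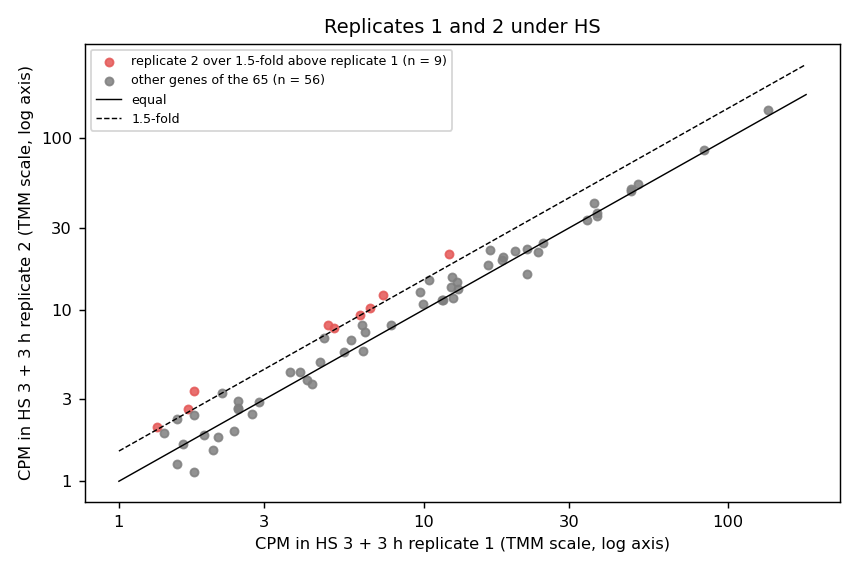
CPM on the TMM scale in HS replicate 1 (horizontal axis) and HS replicate 2 (vertical axis) of the 65 genes, both on log axes. The solid line marks equal values and the dashed line a 1.5-fold higher value in replicate 2, which 9 genes (red) exceed, among them LOC107817520 with 12.1 and 21.2 CPM.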

How the data were processed

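RNA of tobacco pollen tubes was sequenced from non-stranded mRNA libraries as single-end reads. Per the submitters' processing notes and the paper's methods, the authors used bcl2fastq 2.17.1.14, STAR 2.5.2a on the TN90 genome and featureCounts 1.5.0-p1, and deposited whole-number counts of 74044 genes without normalization, together with the TN90 gene annotation. How reads with several matches were treated is not given in the sources used here. Columns of per-sample values that belong to no sample here numbered 0.

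The 65 genes, the gene lists and the tests were chosen with earlier results of these data known. Membership used CPM on library totals. Fits used edgeR 4.0.16 in R 4.3.3 (quasi-likelihood test, TMM, 6 libraries per comparison, a filter of above 0.5 CPM in 2 or more of them, calls past an absolute log2FC of 1 with a Benjamini-Hochberg FDR of at most 0.005) and were tested on simulated data. Levels are CPM on the TMM library sizes of the test of HS 3 + 3 h against RT 6 h, and RPKM divides them by merged exon length. Ratios were taken on pooled counts with exact intervals, or against a floor of 3 counts over the group. Python 3.11.15, pandas 2.3.3 and SciPy 1.17.1 were used for the other steps.

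Named genes were the 12 with the highest CPM under HS, those named by the study, those next to the limits, and neighbours of these. Others were chosen after their values were seen, as were the marker genes, which were taken by synonym from the K326 table because it holds no product descriptions. Role classes, protein relatives and promoter motifs were not analysed here. Of the K326 table, only names, biotypes and the order of genes were used. Alternatives were the likelihood ratio test, DESeq2 1.42.0, its size factors, no TMM, other filters and limits, a replicate block, a common fit of all 9 libraries, other distances, and each library left out.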

Additional observations from a re-analysis of the deposited data

How the results depend on the processing

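The number of genes silent at RT and present under HS followed its limits. It was 7 with no count allowed at RT, 149 with up to 10 counts, and 102 with 0.5 CPM under HS, beside 65. It was 48 with 2 CPM and 70 with CPM on TMM library sizes. With only the RT 6 h or RT 3 h libraries required to be silent it was 78 or 81, and with each library left out in turn 65 to 73. A looser limit or a library left out keeps all 65 genes by construction, so their retention in these sets shows nothing. The set on TMM library sizes also held all 65, that of 2 CPM kept 48, and that of no count at RT kept 7. All 65 were called higher in both comparisons by every fit that tested them. Nothing is read from this, since the rule used the same libraries. None could be tested where at least 10 counts were required in every library. That filter gave 819 genes called higher and 435 lower against RT 6 h (1438 and 661 otherwise), and 1020 higher against RT 3 h (1720 otherwise), with fewer genes tested. Without TMM, 1070 genes were called lower against RT 6 h and 2562 against RT 3 h (1150 otherwise), the median log2FC of all genes moved by -0.15 and -0.28, and the share of higher among all calls fell from 68.5 to 52.2% and from 59.9 to 31.2%; the cause was not tested. Each library left out in turn gave 1303 to 1400 higher and 603 to 669 lower calls against RT 6 h, and 1561 to 1696 and 1024 to 1203 against RT 3 h. Genes outside the 65 that were called higher lay within 5 kb of 3 genes and within 20 kb of 5. The share of library counts moved within its interval when only genes past the filter were counted. Of 56 recomputed levels of 14 named genes, 48 moved by less than 1 SD, and the 8 that moved further did so without TMM, with changes between -11.1 and 10.8% over all 56.

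The deviations of libraries with the same replicate number correlated at -0.019 to 0.106, and those of libraries with different numbers at -0.078 to 0.027. These values cannot show whether libraries with the same number share a pool of pollen. With the replicate number as a block, 1419 genes were called higher and 645 lower against RT 6 h, and 1682 and 1117 against RT 3 h, and all 65 were called higher in both. The few reads at RT, which the rule capped, limit what can be read from the ratios given for these genes. Protein relatives, promoter motifs and role classes were listed as alternatives and were not run, since no sequence or product table was used.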
